A study of Homo sapiens with 16 samples.

Results

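Epithelial cells keep an apical side apart from a basolateral side with a small set of conserved protein complexes, and the genes of 3 of them are described here in HepG2 cells depleted of HCF-1. The 10 genes were taken by name from the deposited table of 56969 genes, and all 10 were found once: PARD6A, PARD6B, PARD6G, PARD3, PRKCI and PRKCZ of the Par complex, LLGL1, LLGL2 and SCRIB of the Scribble module, and CRB3 of the Crumbs complex. The set was put together because PARD6A was among the largest decreases in this same comparison, ranking 2 of 809 called decreases with a group mean of 100 or more and no overlap between groups. PARD6A met that limit through its control mean of 103 (40.6 after HCF-1 siRNA), and among all genes tested its decrease ranked 81. The genes were thus chosen by the log2 fold change of PARD6A between these very libraries. The differences of all 10 between the groups are given as a description, with their calls but with no p-value.

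HepG2 is an established human liver cancer cell line that keeps many hepatocyte features. The cells were reverse transfected in 2 rounds, with a control siRNA in 8 cultures and with an siRNA against HCF-1 in 8 others, and RNA was taken after the second round. HCF-1, encoded by HCFC1, is a chromatin-bound cofactor that DNA-binding factors recruit to promoters. The labels call the cultures biological replicates and give no sequence for either siRNA, so an off-target effect of an siRNA cannot be told apart from the loss of HCF-1. All values come from 1 line grown as a culture, not from tissue.

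In the Par complex, the PAR6 adaptors (PARD6A, PARD6B, PARD6G) bind the small GTPase CDC42 and an atypical protein kinase C (PRKCI or PRKCZ), and the scaffold PAR3 (PARD3) recruits them to junctions. CRB3 is a small membrane protein of the apical surface that binds PAR6. LLGL1, LLGL2 and SCRIB act on the basolateral side, where the LLGL proteins and the atypical kinase exclude each other. Hepatocytes use these complexes to place the bile canaliculus, their apical surface.

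Total reads ran from 21030830 to 32820459 in the control libraries and from 25098840 to 43186890 in the HCF-1 siRNA libraries. The targeted gene HCFC1 was at 3112 to 4171 normalized counts after HCF-1 siRNA against 4851 to 6878 after control siRNA, so the knockdown was partial and every library matched its label. All 10 hepatocyte and HepG2 markers were detected, and their summed level was 791927 to 866944 in control and 947506 to 1123910 in HCF-1 siRNA libraries, without overlap. The markers did not all move together: 5 of 10 (ALB, AFP, TTR, TF and GPC3) were higher after HCF-1 siRNA without overlap, FGB was lower without overlap (5081 to 6180 in control, 3684 to 4571 in HCF-1 siRNA libraries), and the other 4 overlapped. The summed level of 7 markers of blood, endothelial and stromal cells was 1743 to 2279 against 1777 to 2031, most of it ACTA2 (1641 to 1946 in control), and PTPRC did not exceed 3.60 in any library. COL3A1, a collagen gene of stromal cells, was at 246 in control replicate 7 and at 13.6 or less in the other libraries. A normalized count is a read count divided by a size factor of its library, and all fold changes below are on the log2(normalized count + 1) scale.

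Of the 16081 genes tested, 36.6% passed the threshold (limma, Benjamini-Hochberg adjusted p under 0.05), 18.2% higher and 18.3% lower after HCF-1 siRNA. All 10 polarity genes had enough reads to be tested. PARD6A, PRKCI, LLGL1 and CRB3 passed as lower, PARD3 as higher, and the other 5 did not pass. PARD6A alone of the 10 had groups that did not overlap, as did 9.82% of the genes tested, 5.23% lower and 4.59% higher. The median log2 fold change of the 10 genes was -0.16, against 0.006 over all genes tested. Because the comparison itself brought the set together, nothing is read from these counts.

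**Figure D1:**
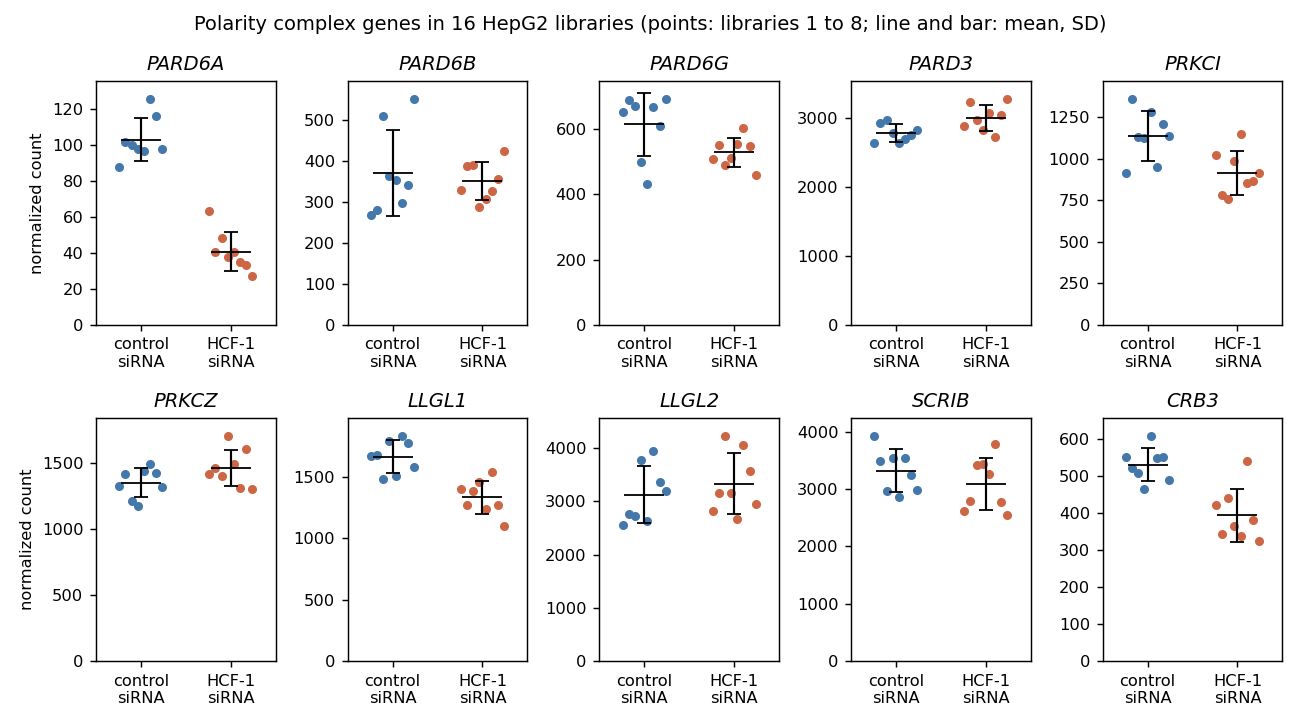
Normalized counts (vertical axes, each starting at 0) of the 10 polarity complex genes in 8 control siRNA and 8 HCF-1 siRNA libraries, with 1 point per library and lines and bars for mean and SD. Only PARD6A has groups that do not overlap, at 87.4 to 125 in control and 27.2 to 63.3 in HCF-1 siRNA libraries.

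The 4 genes that passed as lower all have a start site in the RefSeq promoter table (GRCh38.p14), and the 250 bases before it are shown to let the promoters be compared. Matches to 7 short motifs of factors known to work with HCF-1 or common at promoters are in capitals, on either strand.
PARD6A, chr16:67660710-67660959, plus strand: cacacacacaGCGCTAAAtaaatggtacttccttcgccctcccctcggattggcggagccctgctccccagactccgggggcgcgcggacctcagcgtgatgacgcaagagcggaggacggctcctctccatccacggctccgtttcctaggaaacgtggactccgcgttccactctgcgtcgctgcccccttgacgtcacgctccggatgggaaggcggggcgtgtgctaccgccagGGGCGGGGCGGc
CRB3, chr19:6464021-6464270, plus strand: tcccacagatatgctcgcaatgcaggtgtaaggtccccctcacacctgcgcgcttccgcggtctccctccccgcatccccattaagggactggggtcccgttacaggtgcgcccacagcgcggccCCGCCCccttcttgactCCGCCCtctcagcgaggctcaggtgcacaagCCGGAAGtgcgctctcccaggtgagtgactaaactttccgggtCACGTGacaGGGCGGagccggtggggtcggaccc
LLGL1, chr17:18225385-18225634, plus strand: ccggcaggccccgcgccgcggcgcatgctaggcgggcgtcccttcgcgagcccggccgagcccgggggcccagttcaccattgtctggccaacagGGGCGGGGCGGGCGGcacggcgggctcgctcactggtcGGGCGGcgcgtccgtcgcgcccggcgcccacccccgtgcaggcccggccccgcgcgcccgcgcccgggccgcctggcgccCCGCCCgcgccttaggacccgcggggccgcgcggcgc
PRKCI, chr3:170222174-170222423, plus strand: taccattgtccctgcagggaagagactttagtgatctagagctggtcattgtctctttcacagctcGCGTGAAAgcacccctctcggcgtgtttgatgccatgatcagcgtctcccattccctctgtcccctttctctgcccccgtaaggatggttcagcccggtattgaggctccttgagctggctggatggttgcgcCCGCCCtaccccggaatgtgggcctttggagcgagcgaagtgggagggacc

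The motifs were searched on both strands. The motif of THAP11 and ZNF143, factors that recruit HCF-1, was spelled ACTACAA, and that of ETS factors such as GABPA, which also bind it, was spelled CCGGAAG. The E2F motif was spelled loosely, as TTTNNCGC with N for any base, so a match to it need not be an E2F site. The YY1 motif was spelled AAGATGGCG and the NRF1 motif GCGCATGCG. The E-box was spelled CACGTG, and the motif of SP and KLF factors was spelled GGGCGG. The PARD6A window held 2 overlapping SP and KLF motifs, ending 2 and 7 bases before the start. It also held 1 match to the loose E2F spelling on the opposite strand. Of 35116 windows of this length in the table, which can include several starts of a gene, 42.6% held the SP and KLF motif and 5.92% the E2F motif. The PRKCI window also held both, 1 match each. The LLGL1 window held 5 matches to the SP and KLF motif and none to the other 6 motifs. The CRB3 window held the ETS motif, found in 8.52% of windows, and the E-box, found in 6.34%, beside 3 SP and KLF motifs. The THAP11 and ZNF143 motif (2.47% of windows), the YY1 motif (0.652%) and the NRF1 motif (1.64%) occurred in none of the 4 windows. The windows of ENKD1 and ACD, the neighbours of PARD6A described below, were searched too. That of ENKD1 held 1 THAP11 and ZNF143 motif and 2 SP and KLF motifs. That of ACD held 2 SP and KLF motifs and no match to the other motifs. The 4 genes shown were picked by their calls, and genes that did not pass held matches too. PARD6G had 6 SP and KLF motifs. PRKCZ had 7 before 1 start and 1 match to the loose E2F spelling before another. These matches describe letters, not bound sites, and nothing is read from them about the decreases.

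PARD6A (ENSG00000102981) had 87.4, 98.8 and 125 normalized counts in the lowest, the median and the highest control library, and 27.2, 39.0 and 63.3 in the HCF-1 siRNA libraries. All 8 HCF-1 siRNA libraries lay below all 8 control libraries, and the mean went from 103 to 40.6 (n = 8 each, with coefficients of variation of 11.7% and 27.1%), to 39.5% of the control level. The log2 fold change was -1.35 ± 0.15 (SE). Only 0.497% of the genes tested had a lower one. HCF-1 siRNA replicate 1 was highest of its group and replicate 8 lowest. Of the 10 genes PARD6A had the fewest reads: 75 to 123 stood behind a control value and 25 to 88 behind an HCF-1 siRNA value. Counting error alone gives a coefficient of variation of about 10.2% in control and 15.4% in HCF-1 siRNA libraries, against the observed 11.7% and 27.1%. The HCF-1 siRNA spread rested on replicate 1: without it the coefficient of variation was 17.5%.

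PARD6B, a second PAR6 adaptor, had 269, 347 and 552 normalized counts (lowest, median, highest) in control and 289, 343 and 426 in HCF-1 siRNA libraries. The HCF-1 siRNA values all lay within the control range, and control replicates 3 and 8, at 511 and 552, stood above every other library. The log2 fold change of -0.04 ± 0.14 did not pass, and it was 0.03 without control replicate 3 and 0.05 without control replicate 8. PARD6G, the third adaptor, had 433, 662 and 692 in control and 460, 531 and 605 in HCF-1 siRNA libraries. Its groups overlapped through control replicates 4 and 5, at 499.5 and 433, while the other 6 control libraries were above every HCF-1 siRNA library. The log2 fold change of -0.20 ± 0.10 did not pass, and PARD6G passed as lower without control replicate 5, with -0.27.

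Set per kilobase of exon, the 3 PAR6 genes can be compared with each other. In control libraries PARD6G had 146 ± 22.9 normalized counts per kilobase, PARD6B 78.5 ± 22.3 and PARD6A 69.1 ± 8.09 (SD, n = 8), and the ranges of PARD6A and PARD6B overlapped. After HCF-1 siRNA the levels were 125 ± 10.7, 74.5 ± 9.94 and 27.3 ± 7.39 per kilobase. PARD6A made up 19.0% to 27.6% of the summed PAR6 level in control libraries and 8.41% to 18.3% in HCF-1 siRNA libraries. The summed level itself was 242 to 346 per kilobase in control and 208 to 240.0 in HCF-1 siRNA libraries. Both quantities kept the groups apart, and PARD6A entered both.

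PARD3, the scaffold of the complex, was the steadiest of the 10 genes between cultures. Its values were 2631, 2769 and 2970.0 in control (lowest, median, highest) and 2727, 3007 and 3273 in HCF-1 siRNA libraries, and 4 of 8 HCF-1 siRNA libraries exceeded every control library. The spread within groups, 0.0795 on the log2 scale, was smaller than in all but 6.48% of genes tested. The log2 fold change was 0.11 ± 0.04, with the mean at 108% of control, and PARD3 lost its call in 16 of 25 other settings.

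Of the atypical kinases, PRKCI had 914, 1133 and 1358 normalized counts in control and 754, 887 and 1146 in HCF-1 siRNA libraries (lowest, median, highest), and 5 of 8 HCF-1 siRNA libraries were below every control library. Its log2 fold change was -0.32 ± 0.09, and the mean was at 80.3% of control. PRKCZ, the second atypical kinase, had 1178, 1375 and 1497 in control and 1303, 1444 and 1708 in HCF-1 siRNA libraries. Its log2 fold change of 0.11 ± 0.06 did not pass. In GENCODE v29, 12.3% of PRKCZ exon bases overlap genes of the opposite strand, and with a strand setting not given in the sources used here some of its reads may belong to them. The 2 kinases had similar levels per kilobase in control, 195 ± 25.8 for PRKCI and 177 ± 14.8 for PRKCZ. The ratio of PRKCI to PRKCZ per kilobase was 0.829, 1.14 and 1.25 in control and 0.694, 0.802 and 1.00 in HCF-1 siRNA libraries (lowest, median, highest). In 4 of 8 HCF-1 siRNA libraries the ratio was below every control library, and none was above the highest.

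Of the basolateral genes, LLGL1 had 1483, 1674 and 1834 normalized counts in control and 1104, 1329 and 1536 in HCF-1 siRNA libraries. All but 1 of the HCF-1 siRNA libraries (7 of 8) were below every control library, and HCF-1 siRNA replicate 6 was the one that overlapped. The mean was at 80.1% of control, a log2 fold change of -0.32 ± 0.07. LLGL2, its paralog, had 2556, 2981 and 3947 in control and 2675, 3158 and 4229 in HCF-1 siRNA libraries, with a log2 fold change of 0.09 ± 0.11 that did not pass. LLGL2 was at 3767 or more in control replicates 4 and 6 and in HCF-1 siRNA replicates 3 and 6, so both groups held high libraries. The ratio of LLGL1 to LLGL2 per kilobase was 0.554 to 0.778 in control and 0.390 to 0.590 in HCF-1 siRNA libraries, and 7 of 8 HCF-1 siRNA libraries lay below every control library. SCRIB, the scaffold of the module, had 2853, 3366 and 3926 in control and 2545, 3030.3 and 3788 in HCF-1 siRNA libraries. Its groups overlapped widely and the log2 fold change of -0.11 ± 0.09 did not pass.

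CRB3 had 467, 537 and 610 normalized counts in control and 326, 373 and 542 in HCF-1 siRNA libraries. HCF-1 siRNA replicate 6, at 542, lay among the controls and the other 7 libraries were below every control library. The mean went from 532 ± 44.2 to 395 ± 71.8 (SD, n = 8 each), to 74.4% of control, with a log2 fold change of -0.44 ± 0.09. Replicate 6 was also the highest HCF-1 siRNA library for LLGL1, SCRIB and PARD6G.

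**Figure D2:**
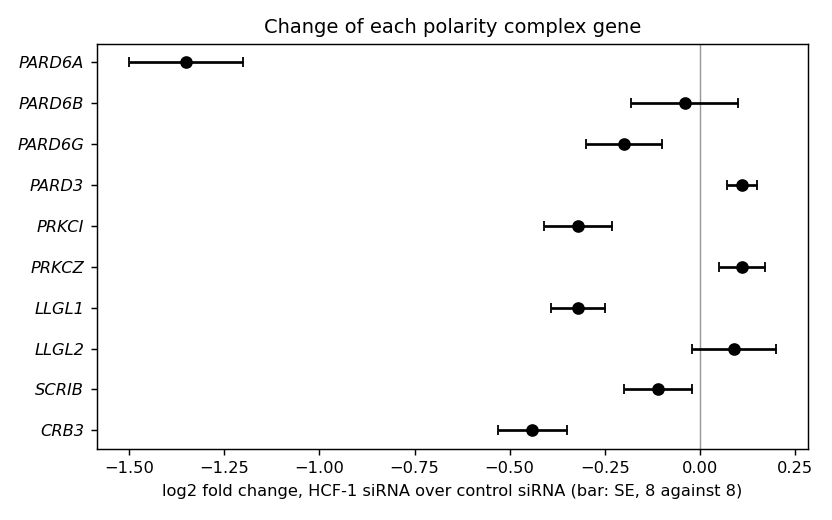
Log2 fold change of HCF-1 siRNA over control siRNA (horizontal axis) for each polarity complex gene, with bars for the SE, 8 libraries against 8. PARD6A, at -1.35, lies far from the other 9, which run from -0.44 (CRB3) to 0.11 (PARD3 and PRKCZ).

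**Figure D3:**
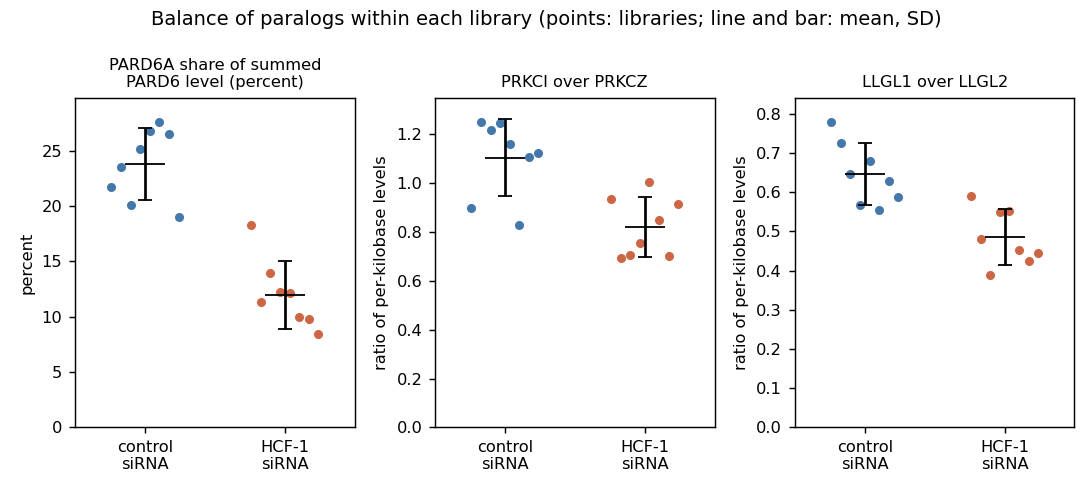
Balance of paralogs within each library from levels per kilobase (vertical axes, from 0), with 1 point per library and lines and bars for mean and SD. The PARD6A share of the PAR6 sum, the ratio of PRKCI to PRKCZ and the ratio of LLGL1 to LLGL2 were lower on average after HCF-1 siRNA, at 12.0%, 0.819 and 0.485 against 23.8%, 1.10 and 0.646.

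By level per kilobase in control libraries, the order was SCRIB (536 ± 59.9), PARD3 (426 ± 19.6), LLGL2 (395 ± 67.5), CRB3 (334 ± 27.7), LLGL1 (251 ± 20.0), PRKCI, PRKCZ, PARD6G, PARD6B and PARD6A (SD, n = 8). Neighbours in this order overlapped between libraries except SCRIB with PARD3 and CRB3 with LLGL1. SCRIB exceeded 84.1% of genes tested on this scale and PARD6A 40.8%. Exon lengths came from GENCODE v29 and include exons that HepG2 cells may not use.

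Whether the polarity genes varied together between cultures of 1 group was tested on deviations from the group means over 16 libraries. The choice of PARD6A asked for a call and for no overlap, and both depend on its spread within groups. It did not use the correlation of any pair. None of 45 pairs passed after Benjamini-Hochberg adjustment (permutation within groups, two-sided; 8 pairs had an unadjusted p under 0.05). The pair with the lowest p was PARD3 and CRB3, with Pearson r = -0.75 (permutation p = 0.00184, adjusted p = 0.0828) and Spearman rho = -0.77 (permutation p = 0.00126, adjusted p = 0.0567). It was -0.62 within control and -0.81 within HCF-1 siRNA libraries, and -0.57 without the 2 libraries farthest from the median of PARD3. No relation of the 10 genes' deviations to total reads passed (10 relations, lowest permutation adjusted p = 0.573). Among 12728 other genes with a mean of 50 or more, those whose deviations were most like those of PARD6A over the 16 libraries were PRKCD (r = 0.87), a protein kinase C gene, HSD17B2 (0.85), a steroid dehydrogenase gene, TRPV4 (0.84), a cation channel gene, ECH1 (0.81), an enzyme of fatty acid oxidation, and PLD2 (0.79), a phospholipase gene. These are the extremes of many genes at 16 libraries and are given as a description. How far they rest on HCF-1 siRNA replicate 1, on which the PARD6A spread of that group rested, was not tested. The other 9 polarity genes had r between -0.25 (PARD3) and 0.47 (LLGL1) with PARD6A.

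PARD6A lies between ACD and ENKD1 in the RefSeq annotation, and both neighbours fell. ACD (ENSG00000102977), which encodes the telomere protein TPP1, had 1178, 1378 and 1495 normalized counts in control and 835, 963 and 1113 in HCF-1 siRNA libraries, without overlap. Its log2 fold change was -0.50 ± 0.07 (limma adjusted p = 4.93e-05). ENKD1 (ENSG00000124074), which encodes a microtubule-binding protein, had 246, 398 and 491 in control and 155, 259 and 332 in HCF-1 siRNA libraries, with overlap. Its log2 fold change was -0.65 ± 0.16 (limma adjusted p = 0.00502). In GENCODE v29 no exon base of PARD6A overlaps another gene on either strand, while 11% of ENKD1 exon bases overlap a gene of the opposite strand. The ratio of ACD to PARD6A was 11.4 to 17.1 in control and 17.0 to 30.9 in HCF-1 siRNA libraries, and 7 of 8 HCF-1 siRNA libraries lay above every control library. PARD6A, chosen for its decrease in these libraries, enters this ratio, so nothing is read from it.

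**Figure D4:**
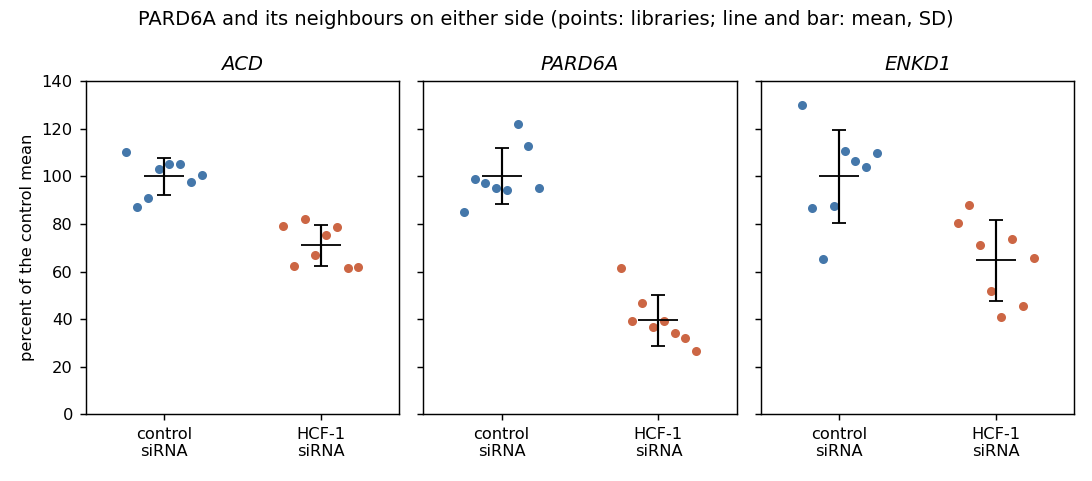
Normalized counts of ACD, PARD6A and ENKD1 as percent of the control mean (vertical axis, from 0), with 1 point per library and lines and bars for mean and SD. The HCF-1 siRNA means are at 71.1% for ACD, 39.5% for PARD6A and 64.7% for ENKD1.

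Other genes of the polarity pathways were followed in 6 lists that hold none of the 10 genes. Of 112 genes tested, 21 rose, 24 fell and 67 did not pass, so 40.2% passed against 36.6% of all genes tested, and the median log2 fold change was -0.04. A share this near the background says nothing particular of polarity genes.

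Among direct partners of the Par, Crumbs and Scribble proteins, 4 of 18 tested rose, 2 fell and 12 did not pass (median log2 fold change 0.11). TIAM2 (0.49 ± 0.12; limma adjusted p = 0.00432), an exchange factor for the GTPase RAC1, and ERBB2IP (0.33 ± 0.11; adjusted p = 0.0221), a relative of SCRIB now called ERBIN, rose. DLG3 (-0.28 ± 0.06; adjusted p = 0.0014), a scaffold of the Discs large family, fell from 918 ± 48.6 to 758 ± 70.0 normalized counts (SD, n = 8 each).

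Of the Par-1 and Par-4 kinases and the 14-3-3 proteins that bind their targets, 2 of 15 rose, 6 fell and 7 did not pass (median -0.08). CAB39L, a partner of the Par-4 kinase STK11, rose from 84.6, 182 and 281 normalized counts in control to 362, 444 and 482 in HCF-1 siRNA libraries (lowest, median, highest), without overlap. Its log2 fold change of 1.32 ± 0.18 (limma adjusted p = 1.80e-05) was the largest of the 112 genes in absolute size. MARK3, a Par-1 kinase, rose (0.28 ± 0.05; adjusted p = 3.48e-04). All 6 that fell were 14-3-3 genes, with SFN the one of largest change, from 534 ± 43.1 to 362 ± 34.5 (-0.56 ± 0.07; adjusted p = 8.55e-06).

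In the list of tight junction genes, which also holds afadin and nectin genes of adherens junctions, 4 of 22 rose, 4 fell and 14 did not pass (median 0.06). TJP3 (0.47 ± 0.13; limma adjusted p = 0.0089), a scaffold, MLLT4 (0.45 ± 0.06; adjusted p = 3.73e-05), the actin-linked adaptor afadin, and CGNL1 (0.36 ± 0.05; adjusted p = 1.41e-05), paracingulin, rose. MLLT4 went from 5509 ± 563 to 7517 ± 615 normalized counts (SD, n = 8 each), and neither it nor CGNL1 overlapped between groups.

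Of the planar cell polarity genes, 4 of 15 rose, 2 fell and 9 did not pass (median 0.00). PRICKLE4 (0.74 ± 0.16; limma adjusted p = 0.00173) and INTU (0.64 ± 0.24; adjusted p = 0.0461), which acts in cilium formation, rose, and PRICKLE3 (-0.45 ± 0.15; adjusted p = 0.0278) fell. In GENCODE v29, 69.3% of PRICKLE4 exon bases lie in exons of other entries on the same strand, TOMM6 among them, so its value is uncertain. INTU lost its call in 14 of 25 other settings and PRICKLE3 in 5. The list had 3 calls without control replicate 1, control replicate 5 or HCF-1 siRNA replicate 8, and 2 with no filter on low values.

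Of the genes of the hepatocyte apical domain and of transport to it, 6 of 31 rose, 6 fell and 19 did not pass (median -0.07). The 3 of largest change are all proteins of the canalicular membrane, and the list was drawn up for that apical surface and the transport to it. ABCC2, an exporter of bilirubin conjugates, rose from 5077 ± 326 to 7827 ± 329 normalized counts (SD, n = 8 each; 0.63 ± 0.04; limma adjusted p = 9.62e-09). DPP4, an apical peptidase, rose from 1430.1 ± 234 to 2196 ± 215 (0.63 ± 0.09; adjusted p = 4.44e-05), and ABCB4, a phospholipid exporter, from 418 ± 80.0 to 593 ± 143 (0.49 ± 0.14; adjusted p = 0.0114). ABCC2 and DPP4 did not overlap between groups. Of the 10 hepatocyte and HepG2 markers given above, 5 were higher in the same libraries, 1 was lower and 4 overlapped, and their part in these increases was not tested.

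Of the other protein kinase C family genes, relatives of PRKCI and PRKCZ, 1 of 11 rose, 4 fell and 6 did not pass (median -0.14). PRKD2, of the protein kinase D branch, fell from 732 ± 47.3 to 513 ± 112 normalized counts (SD, n = 8 each; -0.55 ± 0.12; limma adjusted p = 0.00221), without overlap. PRKD3 (-0.20 ± 0.06; limma adjusted p = 0.0164), of the same branch, fell too. Calls in the whole list numbered 3 when control replicate 5, 6 or 7 was left out, when HCF-1 siRNA replicate 7 or 8 was, with no filter, and with the replicate number as a block.

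**Figure D5:**
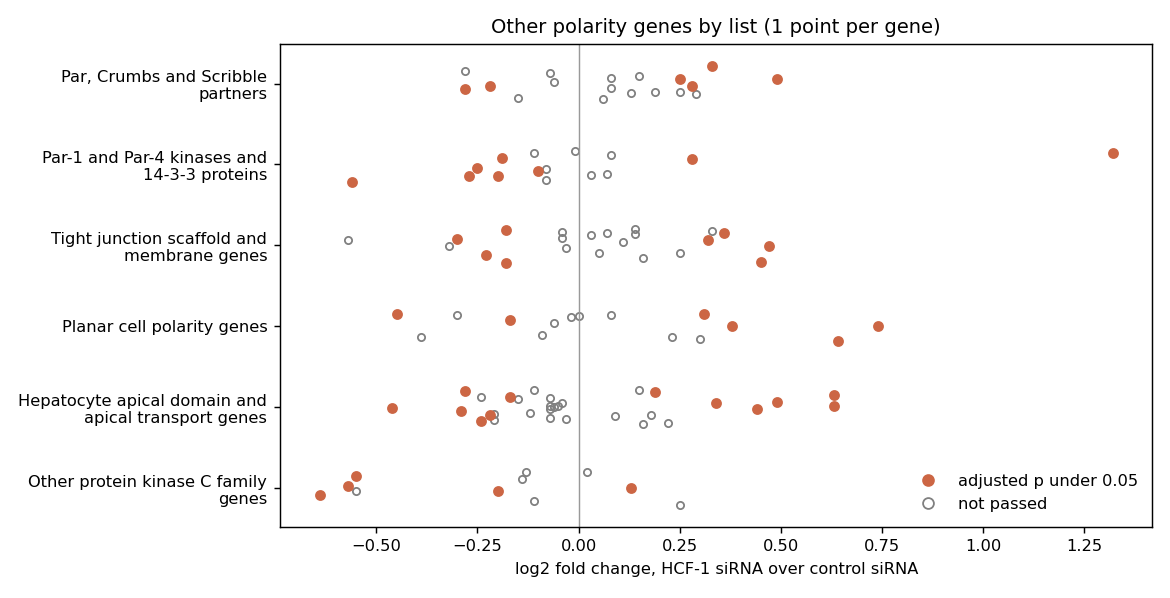
Log2 fold change of HCF-1 siRNA over control siRNA (horizontal axis) for the 112 other polarity genes tested, 1 point per gene by list, filled where the adjusted p was under 0.05. Each list holds genes on both sides of 0, and CAB39L, at 1.32, lies farthest out.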

How the data were processed

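RNA of 16 HepG2 cultures was sequenced from stranded mRNA libraries, per the labels' protocols. What the authors deposited is a signal, the normalized count of each Ensembl gene in each library. The submitters' processing notes name hg19, DESeq2 1.16.1, featureCounts 1.4.4, STAR 2.4.1d and cutadapt 1.4.2. Annotation release, strand setting and filters: not given in the sources used here. All values (100%) were whole multiples of 1 step per library within 0.001 read, so whole reads were recovered. The first HCF-1 siRNA column lacks a digit in its name that the others have, and 0 columns of per-library values were left unused.

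Groups and replicate numbers came from the titles. limma 3.58.1 in R 4.3.3 (trend and robust options) was run on log2 values of the deposited normalized counts with a pseudocount of 1, keeping genes whose mean reached 10, 8 libraries against 8, with Benjamini-Hochberg adjustment over all 16081 genes and a threshold of 0.05. Fold changes of weakly expressed genes are understated by the pseudocount. edgeR 4.0.16 called 5853 genes on the recovered reads and DESeq2 1.42.0 called 6258. The step was also run on simulated data in which far fewer genes changed than the 36.6% that passed here. That run does not check a setting like this one. Other settings were both count tools, pseudocounts of 0.5 and 10, total-count and upper-quartile scaling, no filter or one at 50, a block on the replicate number, and leaving out single libraries.

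Motifs, lists and the 10 genes were chosen with earlier results of these data known, and after their matches were seen the NRF1 motif was shortened and a longer ZNF143 motif dropped. Named are the 10 genes, HCFC1, the neighbours of PARD6A, from each list the 3 called genes that changed most, where a group mean reached 50 (the gene of highest mean where none passed), and the 5 genes most like PARD6A. A gene this rule names is not reported here. Promoters came from RefSeq by symbol (GRCh38.p14), lengths and overlaps from GENCODE v29 by Ensembl identifier. Counting errors cover read counting only.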

Additional observations from a re-analysis of the deposited data

How the results depend on the processing

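PARD6A, PRKCI, LLGL1 and CRB3 kept their direction and their side of the threshold in all 25 other settings, PARD6A with log2 fold changes from -1.45 to -1.18. The settings reuse the libraries in which PARD6A was chosen for its decrease, so they describe the processing only and add no support. PARD3 lost its call in 16 of 25. PARD6B ran from -0.10 to 0.048 with 1 library left out, above 0 without control siRNA replicate 3 (0.032) or 8 (0.048). PRKCD changed sign to -0.011 with total-count scaling and the log2 fold change of PRKCD ran from -0.008 to 0.032 with 1 library left out, below 0 without HCF-1 siRNA replicate 1. TRPV4 lost its call in 11 settings.

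Calls in the planar cell polarity list went from 6 to 2 with no filter, and from 3 to 7 with 1 library left out. Calls in the list of other protein kinase C genes went from 5 to 3 with no filter and to 3 with the replicate block, and from 3 to 5 with 1 library left out. The cause was not tested. The other 4 lists and the counts over all genes stayed within 1.5 times. Same-numbered libraries of the groups did not deviate together (r from -0.074 to 0.098), and only control replicate 8 correlated best with its own number, so the numbers do not pair the libraries. The block gave 2721 genes higher and 2763 lower, against 2932 and 2947. PARD6A rested on 25 to 123 reads per library, fewer than any of the other 9 genes.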
